A study of Mus musculus with 18 samples.

Results

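The 32 genes described here mark the lymphocytes of the mouse colon and the signals that gather them into follicles. They were taken from the deposited count table by gene symbol: 10 B cell genes, 3 genes of homing and lymphotoxin signalling, 11 T cell genes, 3 genes shared by all lymphocytes, 2 follicle chemokines and 3 genes linked to plasma cells. All 32 symbols were found among the 45777 genes of the table, and 28 of them had enough counts to be tested, with 18848 genes tested in all. No level measured in the table enters the choice by symbol, although the symbols were proposed with earlier results of these data known.

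Colon tissue was taken from germ-free male C57BL/6J mice of 8 weeks, animals raised in isolators without microbes. Messenger RNA was sequenced in 18 libraries, 3 in each of 6 groups, which the labels letter as replicates A, B and C, and values of a group are given in that order. The groups were Lao1-/- Il4i1-/- mice (labelled DKO), Lao1-/- mice (labelled LAO1KO) and wild-type mice (WT). Each genotype was given either 2.5% dextran sulfate sodium (DSS) in the drinking water for 24 hours or sterile water alone. DSS injures the colonic epithelium. Both deleted genes code for enzymes that oxidise amino acids, and DKO mice share the Lao1 deletion with LAO1KO mice. The labels name no promoter-driven or cell type-specific deletion, and they do not say whether animals were littermates or which length of colon was taken.

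The colon wall holds isolated lymphoid follicles and larger colonic patches, in which B cells lie around stromal cells that secrete Cxcl13. B cells follow Cxcl13 through the receptor Cxcr5, and lymphotoxin made by lymphocytes keeps the stroma producing it. T cells sit at the edge of such follicles, drawn through Ccr7, and also among the epithelial and lamina propria cells, while IgA plasma cells lie scattered in the lamina propria. In bulk tissue, fewer cells of a type and less RNA per cell cannot be told apart, and a follicle is present in a piece of colon or not.

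The libraries held 26003174 to 36553193 counts, so that a count of 0 allows up to 3 counts, or 0.0792 to 0.176 CPM (counts scaled to the library total), a limit that covers counting error only. Mitochondrial mRNA made up 6.89 to 44.9% of the counts. The summed counts of Il4i1 and its overlapping model Il4i1b were 0 to 0.363 CPM in DKO, 0.491 to 1.85 CPM in LAO1KO and 0.861 to 2.94 CPM in WT libraries. Lao1 had 0 to 10 counts in any library and could not check the LAO1KO label. WT water replicate B stood apart for the genes described here: all 9 tested T cell genes, all 3 pan-lymphocyte genes and Cxcl13 were lower in it than in the other WT water libraries. Its summed Igha and Jchain level was 1.12 CPM, against a median of 17.9 CPM over the 18 libraries. Values without it stand beside several of the results that use it.

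Promoter sequences of 21 of the 32 genes were taken from RefSeq's GRCm38.p6 table. They were searched on both strands for short motifs of 4 lymphoid transcription factor families. Mzb1 was not searched, because its chromosome was left out of the promoter search. No entry was matched for Ccr7, Cd4, Ms4a1, Cd2, Cxcr5, Cd79b, Rac2, Blk, Ptprcap and Cd8b1. The motifs were the octamer ATGCAAAT, an EBF motif (TCCC and GGGA with any 2 bases between them), an NF-kappa-B motif (GGGA and TTCC with any 2 bases between them) and an Ets motif ACAGGAAGT. They occurred in 1.6%, 0.779%, 1.21% and 0.794% of 32851 mouse promoter windows of 250 bases. These windows also leave out the chromosome of Mzb1. The octamer was found in 0 of the 21 genes, the EBF motif in Cd22, the NF-kappa-B motif in Ltb, and the Ets motif in Cd3e, Cd79a and Lck. A match of letters is a description and not a bound site. The 5 windows below, each the 250 bases before a RefSeq start, are shown because they belong to the 2 B cell genes, the lymphotoxin gene, the chemokine and the T cell gene whose levels follow. Capitals mark the motif, which lies 57 bases before the start in Cd79a, 49 in Cd22, 87 in Ltb and 18 in Cd3e, counted from its first base, and the Cxcl13 window holds none of the 4.
Cd79a, chr7:24897247-24897496, plus strand: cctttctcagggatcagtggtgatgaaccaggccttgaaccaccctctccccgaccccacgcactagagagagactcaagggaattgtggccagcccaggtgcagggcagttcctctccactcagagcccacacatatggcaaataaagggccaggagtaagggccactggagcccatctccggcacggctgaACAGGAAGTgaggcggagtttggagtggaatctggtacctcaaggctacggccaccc
Cd22, chr7:30879029-30879278, minus strand: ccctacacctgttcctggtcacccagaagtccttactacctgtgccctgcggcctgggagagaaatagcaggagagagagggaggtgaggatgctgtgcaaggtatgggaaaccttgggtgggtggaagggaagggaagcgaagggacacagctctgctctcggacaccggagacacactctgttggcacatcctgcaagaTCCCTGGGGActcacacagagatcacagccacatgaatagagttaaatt
Ltb, chr17:35194257-35194506, plus strand: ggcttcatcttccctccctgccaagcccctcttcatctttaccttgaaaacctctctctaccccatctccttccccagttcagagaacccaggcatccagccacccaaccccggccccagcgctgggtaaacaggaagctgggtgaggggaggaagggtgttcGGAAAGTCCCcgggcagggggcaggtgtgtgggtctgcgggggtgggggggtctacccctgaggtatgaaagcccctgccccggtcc
Cxcl13, chr5:95956689-95956938, plus strand: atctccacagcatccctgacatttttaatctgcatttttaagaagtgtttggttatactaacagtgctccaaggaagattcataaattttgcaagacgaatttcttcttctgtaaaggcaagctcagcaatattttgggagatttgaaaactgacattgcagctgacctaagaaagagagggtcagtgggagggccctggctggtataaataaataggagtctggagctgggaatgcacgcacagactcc
Cd3e, chr9:45009612-45009861, minus strand: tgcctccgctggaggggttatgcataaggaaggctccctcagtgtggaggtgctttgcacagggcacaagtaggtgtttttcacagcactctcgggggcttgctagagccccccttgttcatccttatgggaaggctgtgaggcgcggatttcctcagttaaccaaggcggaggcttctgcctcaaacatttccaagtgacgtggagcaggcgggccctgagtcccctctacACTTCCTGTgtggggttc
The RefSeq start of Cd22 lies inside the longer GENCODE gene model (chr7:30865402-30880342, minus strand), so its window belongs to a start other than the first base of that model, and the windows of Cd79a, Ltb and Cd3e also overlap the first bases of the GENCODE models.

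The B cell genes varied more between replicate mice than at least 96.1% of the tested genes, and they varied together. Cd79a (chr7:24897381-24902197, GRCm38) encodes the signalling chain of the B cell receptor. Cd79a was at 3.11, 5.38 and 2.81 CPM in DKO DSS, 4.78, 12.7 and 0.164 CPM in LAO1KO DSS and 4.57, 2.51 and 2.7 CPM in WT DSS. On water the values were 0.343, 0.226 and 8.49 CPM in DKO water, 0.426, 0.792 and 8.31 CPM in LAO1KO water and 1.92, 0.542 and 0.745 CPM in WT water. Within DKO water and LAO1KO water, replicate C was far above A and B, and within LAO1KO DSS the values ran from 0.164 CPM, or 4 counts, in replicate C to 12.7 CPM in replicate B. Group means were 3.77 ± 1.41 CPM in DKO DSS, 3.02 ± 4.74 in DKO water, 5.88 ± 6.34 in LAO1KO DSS, 3.18 ± 4.45 in LAO1KO water, 3.26 ± 1.14 in WT DSS and 1.07 ± 0.745 in WT water (SD, n = 3 each). In 3 of the 6 groups the SD was larger than the mean.

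Ms4a1 (chr19:11249675-11266241) encodes CD20, a surface protein of mature B cells. Ms4a1 was at 1.19, 2.06 and 1.42 CPM in DKO DSS, 1.57, 4.37 and 0.204 CPM in LAO1KO DSS and 2.8, 1.36 and 1.65 CPM in WT DSS. Without DSS it had 0.343, 0.283 and 3.64 CPM in DKO water, 0.539, 0.396 and 3.58 CPM in LAO1KO water and 0.835, 0.351 and 0.852 CPM in WT water. Replicate C of DKO water and LAO1KO water and replicate B of DKO DSS and LAO1KO DSS were again the highest of their groups. Cr2 (chr1:195136811-195176716) encodes complement receptor 2, which marks mature and marginal zone B cells and follicular dendritic cells. Cr2 was at 0.988, 3.72 and 1.48 CPM in DKO DSS, 1.31, 4.44 and 0.164 CPM in LAO1KO DSS and 3.11, 1.51 and 2.06 CPM in WT DSS. The water libraries had 0.411, 0 and 6.34 CPM in DKO water, 0.454, 0.977 and 6.31 CPM in LAO1KO water and 1.31, 0.414 and 0.532 CPM in WT water. Cr2 had 0 counts in DKO water replicate B and 6.34 CPM in replicate C of that group. Pax5, the transcription factor that keeps B cell identity, had 0 counts in DKO water replicate B and LAO1KO DSS replicate C, and 4.66 CPM in LAO1KO DSS replicate B.

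**Figure D1:**
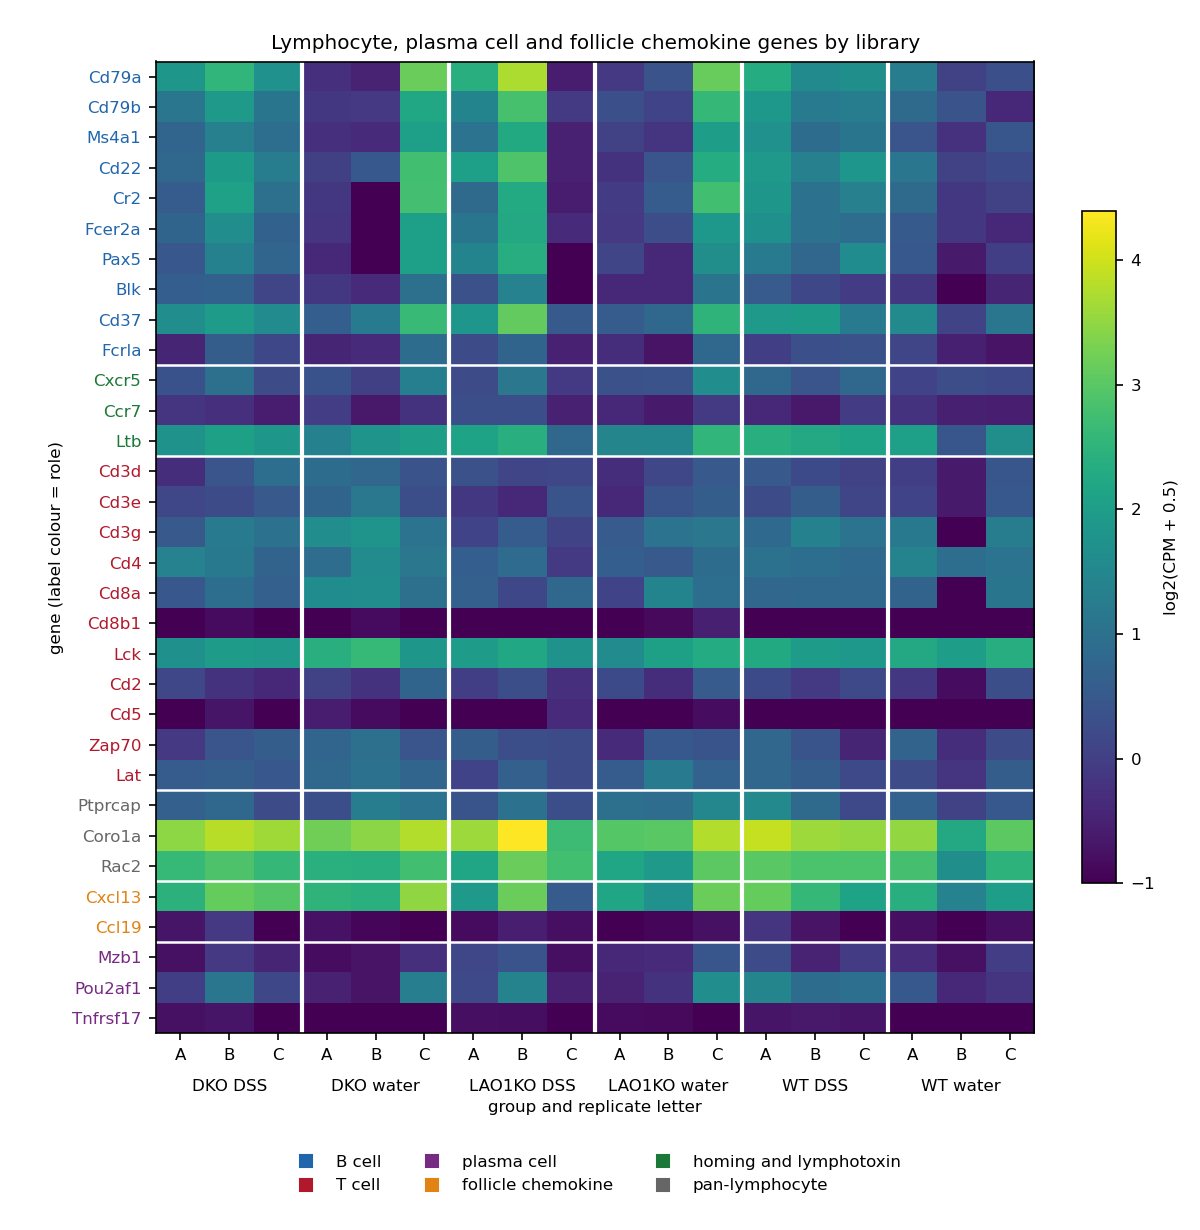
Levels of the 32 genes (rows, label colour by role) in the 18 libraries (columns by group and replicate letter), as log2(CPM + 0.5) on a colour scale. Rows of B cell genes are bright together in replicate C of DKO water and LAO1KO water and in replicate B of LAO1KO DSS, and dark together in LAO1KO DSS replicate C, while the Cd3e row is brightest in DKO water replicate B.

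All 10 B cell genes had their highest value within the group in the same library for 4 groups. This was replicate B in DKO DSS and LAO1KO DSS, and replicate C in DKO water and LAO1KO water. All 10 were lowest in LAO1KO DSS replicate C within that group. Summed over the 10 genes, the level was 14.2, 28 and 15.3 CPM in DKO DSS and 4.35, 4.21 and 44.7 CPM in DKO water. It was 21.8, 55.4 and 2.62 CPM in LAO1KO DSS, against 5.11, 6.18 and 42.2 CPM in LAO1KO water. It was 26.3, 16.7 and 18.5 CPM in WT DSS, against 12.4, 3.98 and 5.85 CPM in WT water. The 3 libraries above 40 CPM lay in 3 different groups, and the WT DSS and WT water values did not overlap.

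The remaining B cell genes were also highest in replicate B of DKO DSS and LAO1KO DSS and in replicate C of DKO water and LAO1KO water within those groups. Cd79b encodes the partner chain of Cd79a. Cd79b was at 1.66, 3.26 and 1.63 CPM in DKO DSS, 2.18, 6.61 and 0.45 CPM in LAO1KO DSS and 3.19, 1.84 and 1.94 CPM in WT DSS. Under water it had 0.411, 0.424 and 4.15 CPM in DKO water, 0.738, 0.554 and 5.49 CPM in LAO1KO water and 1.31, 0.797 and 0.266 CPM in WT water. Its lowest value was in WT water replicate C. Fcer2a encodes CD23, the low-affinity IgE receptor of follicular B cells. Fcer2a was at 1.16, 2.63 and 1.09 CPM in DKO DSS, 1.65, 4.26 and 0.286 CPM in LAO1KO DSS and 2.76, 1.51 and 1.41 CPM in WT DSS. It was at 0.377, 0 and 3.64 CPM in DKO water, 0.426, 0.713 and 3.17 CPM in LAO1KO water and 0.947, 0.414 and 0.266 CPM in WT water. It had 0 counts in DKO water replicate B. Blk encodes a Src family kinase of B cells. Blk was at 1.02, 1.09 and 0.591 CPM in DKO DSS, 0.755, 2.13 and 0 CPM in LAO1KO DSS and 0.96, 0.627 and 0.47 CPM in WT DSS. On water the values were 0.411, 0.283 and 1.49 CPM in DKO water, 0.255, 0.264 and 1.62 CPM in LAO1KO water and 0.418, 0 and 0.239 CPM in WT water. It had 0 counts in LAO1KO DSS replicate C and WT water replicate B. The inhibitory co-receptor Cd22 spanned 0.204 to 6.97 CPM, the tetraspanin Cd37 0.574 to 8.04 CPM and the Fc receptor-like Fcrla 0.106 to 1.38 CPM. Cd22 and Cd37 were highest in LAO1KO DSS replicate B and Fcrla in DKO water replicate C.

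The spread is given as edgeR's biological coefficient of variation, the variation between replicates of a group beyond that of counting. It was 0.64 to 1.18 for the 10 B cell genes, with a median of 0.88, while the median of all 18848 tested genes was 0.20. The B cell genes thus lay between the 96.1st and the 99.3rd percentile of all tested genes. Pax5 (1.18), Cr2 (1.12) and Cd79a (1.08) had the largest values of the 28 genes. T cell genes spanned 0.23 to 0.58 with a median of 0.43, Cxcl13 had 0.49, and the B cell coactivator Pou2af1 had 0.84. Spread is larger for genes with few reads, and the values of the B cell genes were 1.66 to 3.54 times the fitted trend at their level, against 0.74 to 1.62 times for the T cell genes. No test was made of this difference.

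**Figure D2:**
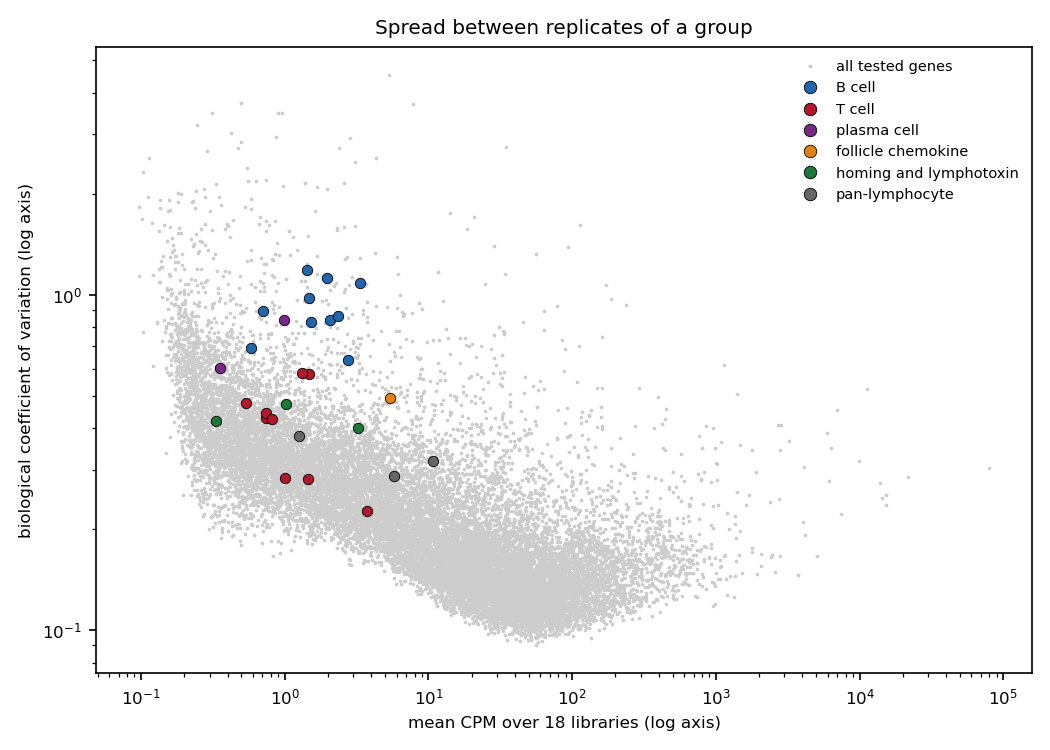
Biological coefficient of variation between replicates (y, log axis) against mean CPM (x, log axis) for the 18848 tested genes in grey and the 28 tested genes of the lymphoid set in colour by role. The B cell genes lie between 0.64 and 1.18, above the bulk of genes of similar level, and the T cell genes lie between 0.23 and 0.58.

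Whether genes of different cell types of a follicle varied together was tested over the 18 libraries with log2(CPM + 0.5), for 14 pairs, of which 6 were added after the data were seen. The added pairs were Cd79a with Igha, and Cd3e with Cd3d, Cd3g, Cd8a, Zap70 and Cd4. The 18 libraries differ in group, depth and tissue composition, and the permutations did not keep the groups apart. The relations therefore describe co-variation across pieces of colon, into which differences between groups also enter. Cd79a and Ms4a1 had Pearson r = 0.97 and Spearman rho = 0.96, each with permutation p = 1e-05, the smallest that 100000 resamples give (adjusted p = 4.67e-05 and 7e-05). Without the 2 libraries farthest from the median of Cd79a, DKO water replicate B and LAO1KO DSS replicate C, r was 0.96. Cd79a and Cr2 had r = 0.94 and rho = 0.94, each with permutation p = 1e-05 (adjusted p = 4.67e-05 and 7e-05), and r = 0.92 without those libraries.

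Cxcl13, the chemokine that stroma of the follicle secretes and not the B cells, also followed Cd79a, at r = 0.73 (permutation p = 4.3e-04, adjusted p = 0.001) and rho = 0.70 (p = 0.00143, adjusted p = 0.00286). Without the 2 farthest libraries r was 0.74, and over deviations from the group means it was 0.89. Mzb1, an endoplasmic reticulum protein of plasma cells and some B cells, had r = 0.74 (permutation p = 6.1e-04, adjusted p = 0.00122) and rho = 0.71 (p = 0.00119, adjusted p = 0.00278), and r = 0.67 without those libraries. Ccr7, the receptor for Ccl19 and Ccl21, had r = 0.60 (permutation p = 0.00849, adjusted p = 0.0132) and rho = 0.53 (p = 0.0244, adjusted p = 0.0427). Without the 2 farthest libraries its r was 0.53 and no longer passed (adjusted p = 0.065). Ccl19 had r = 0.39 and rho = 0.32 (permutation adjusted p = 0.155 and 0.276, and r = 0.39 without those libraries).

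The T cell genes Cd3e and Cd8a passed no test of relation with Cd79a. Cd79a had r = -0.21 and rho = -0.21 with Cd3e (permutation adjusted p = 0.47 and 0.46) and r = -0.11 and rho = -0.22 with Cd8a (adjusted p = 0.71 and 0.46), and without the 2 farthest libraries r was 0.0064 and 0.040. With Igha, the constant region of IgA, r was 0.095 and rho 0.084 (permutation adjusted p = 0.71 and 0.744; r = -0.071 without those libraries). Some T cell genes varied with Cd3e, in pairs added after the data were seen. Cd3e had r = 0.86 and rho = 0.83 with Cd8a (permutation adjusted p = 4.67e-05 and 3.27e-04), 0.78 and 0.72 with Cd3g (5.25e-04 and 0.00278), and 0.77 and 0.78 with Cd3d (5.32e-04 and 9.8e-04). Without WT water replicate B and DKO water replicate B, the libraries farthest from the median of Cd3e, these r were 0.80, 0.61 and 0.64. Zap70, the kinase that binds the CD3 chains, had r = 0.63 with Cd3e (permutation adjusted p = 0.00962; rho = 0.46, adjusted p = 0.0923), which without those libraries was 0.42 and no longer passed (adjusted p = 0.161). Cd4 had r = 0.21 with Cd3e (rho = 0.16; permutation adjusted p = 0.47 and 0.571; r = 0.0032 without those libraries), and macrophages also express Cd4. As a description without a test, r with Cd3e was 0.59 for Lat, 0.50 for Lck and 0.10 for Cd2.

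The 18 values of Cd79a had their widest gap between 0.792 and 1.92 CPM, with 7 libraries below it, of which 6 were from mice on water, and 11 above. Within the 7 lower and the 11 higher libraries, r of Cd79a was 0.72 and 0.94 with Ms4a1, 0.86 and 0.83 with Cr2, 0.75 and 0.66 with Mzb1, and 0.18 and 0.63 with Cxcl13. With Ccr7 it was -0.20 and 0.54. The 7 lower libraries were set apart by Cd79a itself and span a narrow range of it. They cannot show whether the relations of Cxcl13 and Ccr7 with Cd79a hold at low levels. As a description over the 18 libraries, the other 9 B cell genes had r of 0.86 to 0.97 with Cd79a, Pou2af1 0.90, Coro1a 0.83, Cxcr5 0.79 and Ltb 0.78, and the highest r of a T cell gene was 0.53 for Cd2. Among the 10 other tested genes most like Cd79a by Pearson r over the 18 libraries were Ighd (0.99), Fcmr (0.98), H2-Eb2 (0.97), Iglc2 (0.96), Bank1 (0.95), Gm35545 (0.94), Tnfrsf13c (0.93) and Ighm (0.93). Ighd and Ighm are the IgD and IgM constant regions of B cells that have not switched class, and Tnfrsf13c encodes the receptor for the survival factor BAFF.

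**Figure D3:**
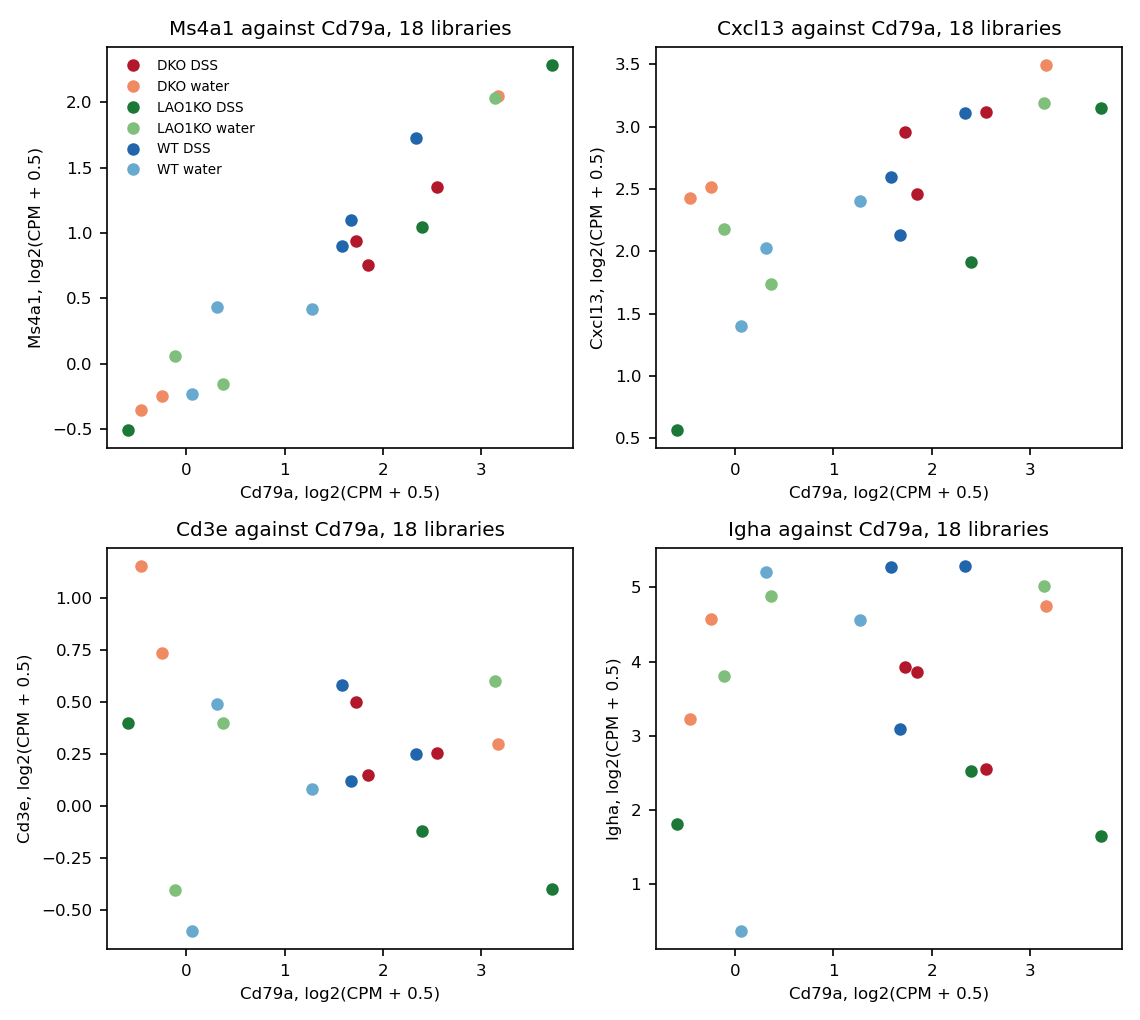
Ms4a1, Cxcl13, Cd3e and Igha (y) against Cd79a (x), each as log2(CPM + 0.5), with 1 point per library coloured by group. Pearson r is 0.97 for Ms4a1, 0.73 for Cxcl13, -0.21 for Cd3e and 0.095 for Igha over the 18 libraries.

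Of the homing and lymphotoxin genes, Ltb (chr17:35194439-35196320), which encodes lymphotoxin beta, had 0.861 to 5.36 CPM. Ltb was at 2.88, 3.69 and 3.13 CPM in DKO DSS, 3.89, 4.74 and 1.27 CPM in LAO1KO DSS and 4.72, 4.28 and 3.88 CPM in WT DSS. Without DSS it had 2.09, 2.94 and 3.57 CPM in DKO water, 2.24, 2.27 and 5.36 CPM in LAO1KO water and 3.62, 0.861 and 2.69 CPM in WT water. Within WT, DSS values lay above water values without overlap, while in DKO and LAO1KO they overlapped. Cxcr5, the receptor for Cxcl13 on follicular B cells and helper T cells, had a median of 0.271 CPM per kb of exon, against 2.85 CPM per kb for Ltb. Cxcr5 was at 0.785, 1.48 and 0.68 CPM in DKO DSS, 0.671, 1.69 and 0.45 CPM in LAO1KO DSS and 1.27, 0.848 and 1.23 CPM in WT DSS. The water libraries had 0.788, 0.509 and 2.0 CPM in DKO water, 0.766, 0.792 and 2.6 CPM in LAO1KO water and 0.557, 0.701 and 0.639 CPM in WT water. LAO1KO water replicate C held the highest value. Ccr7 was at 0.378, 0.332 and 0.177 CPM in DKO DSS, 0.727, 0.734 and 0.204 CPM in LAO1KO DSS and 0.269, 0.148 and 0.47 CPM in WT DSS. Under water it had 0.48, 0.141 and 0.364 CPM in DKO water, 0.255, 0.158 and 0.444 CPM in LAO1KO water and 0.362, 0.191 and 0.186 CPM in WT water. Ccr7 rested on 4 to 26 counts per library, and its highest values were in LAO1KO DSS replicates A and B.

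Per kilobase of exon, Cxcl13 had the second highest median level of the 32 genes, at 4.29 CPM per kb, after the actin regulator Coro1a at 5.77. Cxcl13 (chr5:95956951-95961068) had values in every library. Cxcl13 was at 5.0, 8.16 and 7.27 CPM in DKO DSS, 3.27, 8.37 and 0.981 CPM in LAO1KO DSS and 8.14, 5.53 and 3.88 CPM in WT DSS. It was at 5.21, 4.86 and 10.7 CPM in DKO water, 4.03, 2.82 and 8.63 CPM in LAO1KO water and 4.79, 2.14 and 3.57 CPM in WT water. The lowest value, in LAO1KO DSS replicate C, was in the library with the lowest Cd79a, and the highest, in DKO water replicate C, was in a library with high Cd79a. DKO water lay above WT water without overlap. Ccl19 was at 0.116, 0.423 and 0 CPM in DKO DSS, 0.056, 0.184 and 0.0818 CPM in LAO1KO DSS and 0.384, 0.111 and 0 CPM in WT DSS. On water the values were 0.103, 0.0283 and 0 CPM in DKO water, 0, 0.0264 and 0.0952 CPM in LAO1KO water and 0.0835, 0 and 0.0798 CPM in WT water. Ccl19, the T zone chemokine, was close to the floor, with 0 to 14 counts per library, 54 counts in all and 5 libraries at 0. Its median was 0.097 CPM per kb.

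No T cell gene was above 5.6 CPM in any library. Cd3e (chr9:44998740-45009627), Cd3d and Cd3g encode chains of the CD3 complex that carries the T cell receptor signal. Cd3e was at 0.61, 0.695 and 0.917 CPM in DKO DSS, 0.42, 0.257 and 0.818 CPM in LAO1KO DSS and 0.691, 0.996 and 0.588 CPM in WT DSS. Without DSS it had 1.16, 1.73 and 0.729 CPM in DKO water, 0.255, 0.818 and 1.01 CPM in LAO1KO water and 0.557, 0.159 and 0.905 CPM in WT water. DKO water replicates A and B held the highest values and WT water replicate B the lowest. Cd3d was at 0.32, 0.846 and 1.42 CPM in DKO DSS, 0.755, 0.587 and 0.613 CPM in LAO1KO DSS and 0.921, 0.664 and 0.529 CPM in WT DSS. The water libraries had 1.37, 1.22 and 0.802 CPM in DKO water, 0.312, 0.607 and 0.92 CPM in LAO1KO water and 0.501, 0.159 and 0.852 CPM in WT water. Cd3d was again lowest in WT water replicate B and highest in DKO DSS replicate C. Cd3g was at 0.93, 1.78 and 1.51 CPM in DKO DSS, 0.56, 0.991 and 0.572 CPM in LAO1KO DSS and 1.31, 2.07 and 1.59 CPM in WT DSS. Under water it had 2.6, 2.97 and 1.57 CPM in DKO water, 0.965, 1.58 and 1.71 CPM in LAO1KO water and 1.75, 0 and 1.92 CPM in WT water. LAO1KO DSS lay below WT DSS without overlap for Cd3g, and WT water replicate B had 0 counts.

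Cd8a (chr6:71373427-71379173) encodes the alpha chain of CD8, carried by cytotoxic T cells and by intraepithelial lymphocytes. Cd8a was at 0.872, 1.42 and 1.06 CPM in DKO DSS, 1.06, 0.624 and 1.27 CPM in LAO1KO DSS and 1.23, 1.25 and 1.23 CPM in WT DSS. It was at 2.57, 2.63 and 1.49 CPM in DKO water, 0.568, 2.22 and 1.43 CPM in LAO1KO water and 1.14, 0 and 1.62 CPM in WT water. DKO DSS lay below DKO water without overlap, and WT water replicate B had 0 counts. Cd8b1, the beta chain found on conventional cytotoxic T cells, had 12 counts in all and was at 0 in 14 libraries. Its median level per kilobase was 0, against 0.397 CPM per kb for Cd8a. Cd4 (chr6:124864692-124888221) encodes the co-receptor of helper T cells. Cd4 was at 2.12, 1.75 and 1.15 CPM in DKO DSS, 1.04, 1.36 and 0.45 CPM in LAO1KO DSS and 1.54, 1.44 and 1.29 CPM in WT DSS. On water the values were 1.4, 2.52 and 1.71 CPM in DKO water, 1.02, 0.924 and 1.36 CPM in LAO1KO water and 2.17, 1.43 and 1.57 CPM in WT water. LAO1KO water lay below WT water without overlap.

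Lat, an adaptor that passes on the T cell receptor signal, is described in full because it had the smallest p of the set for DSS in LAO1KO and for both knockouts over WT under water. Lat was at 0.988, 1.06 and 0.887 CPM in DKO DSS, 0.56, 1.06 and 0.695 CPM in LAO1KO DSS and 1.23, 0.996 and 0.647 CPM in WT DSS. Without DSS it had 1.27, 1.53 and 1.2 CPM in DKO water, 0.993, 1.87 and 1.11 CPM in LAO1KO water and 0.668, 0.383 and 1.01 CPM in WT water. DKO DSS lay below DKO water without overlap, and DKO water lay above WT water without overlap. Lck, the kinase that starts this signal, had the highest median of the T cell genes except Cd3g per kilobase, at 1.49 CPM per kb. Lck was at 2.76, 3.45 and 3.25 CPM in DKO DSS, 3.41, 4.22 and 2.9 CPM in LAO1KO DSS and 4.34, 3.39 and 3.17 CPM in WT DSS. The water libraries had 4.69, 5.6 and 3.1 CPM in DKO water, 2.53, 3.7 and 4.5 CPM in LAO1KO water and 4.26, 3.47 and 4.6 CPM in WT water. DKO water replicates A and B were again the highest. Zap70 was at 0.436, 0.846 and 1.01 CPM in DKO DSS, 1.01, 0.734 and 0.695 CPM in LAO1KO DSS and 1.23, 0.811 and 0.235 CPM in WT DSS. Under water it had 1.2, 1.5 and 0.838 CPM in DKO water, 0.284, 0.897 and 0.825 CPM in LAO1KO water and 1.14, 0.319 and 0.692 CPM in WT water. Zap70 was highest in DKO water replicate B and lowest in WT DSS replicate C. Cd2 was at 0.61, 0.363 and 0.266 CPM in DKO DSS, 0.504, 0.734 and 0.327 CPM in LAO1KO DSS and 0.653, 0.443 and 0.647 CPM in WT DSS. It was at 0.548, 0.368 and 1.17 CPM in DKO water, 0.653, 0.317 and 0.952 CPM in LAO1KO water and 0.418, 0.0638 and 0.718 CPM in WT water. Cd2, an adhesion receptor of T and natural killer cells, was highest in DKO water replicate C and lowest in WT water replicate B. The inhibitory receptor Cd5 had 20 counts in all and was at 0 in 13 libraries.

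Summed over the 11 T cell genes, the level was 9.65, 12.4 and 11.5 CPM in DKO DSS and 17, 20.2 and 12.6 CPM in DKO water. It was 9.32, 10.6 and 8.63 CPM in LAO1KO DSS, against 7.58, 13 and 14.1 CPM in LAO1KO water. It was 13.1, 12.1 and 9.93 CPM in WT DSS, against 12.6, 5.99 and 13.9 CPM in WT water. Of the 5.99 CPM in WT water replicate B, Lck had 3.47 CPM, Cd4 1.43 CPM and the 3 CD3 chains together 0.319 CPM. Over the 18 libraries the sum spanned 3.36-fold, against 18.5-fold for the CD3 chains. For the 11 genes DKO DSS lay below DKO water without overlap, by a small margin (12.4 against 12.6 CPM). DSS and water values of the other genotypes overlapped. Summed over Cd3d, Cd3e and Cd3g alone, DKO DSS (1.86 to 3.84 CPM) and DKO water (3.1 to 5.91 CPM) overlapped.

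Of the genes shared by lymphocytes and other blood cells, Coro1a had 4.3 to 20.5 CPM and Rac2, a GTPase of blood cells, 2.71 to 8.44 CPM. Coro1a was at 10.5, 13.5 and 11.7 CPM in DKO DSS, 11.6, 20.5 and 6.01 CPM in LAO1KO DSS and 14.7, 11.7 and 11 CPM in WT DSS. On water the values were 8.84, 10.4 and 13 CPM in DKO water, 7.35, 7.52 and 13.2 CPM in LAO1KO water and 11, 4.3 and 7.74 CPM in WT water. WT DSS lay above WT water without overlap, by a small margin, and WT water replicate B was the lowest of all libraries. Rac2 was at 5.64, 6.86 and 5.53 CPM in DKO DSS, 4.03, 8.44 and 6.3 CPM in LAO1KO DSS and 7.6, 6.82 and 6.76 CPM in WT DSS. Without DSS it had 4.83, 4.69 and 6.3 CPM in DKO water, 4.09, 3.3 and 7.74 CPM in LAO1KO water and 6.52, 2.71 and 5.08 CPM in WT water. WT DSS again lay above WT water without overlap for Rac2. Ptprcap was at 1.08, 1.27 and 0.68 CPM in DKO DSS, 0.811, 1.5 and 0.736 CPM in LAO1KO DSS and 2.42, 1.33 and 0.647 CPM in WT DSS. The water libraries had 0.719, 1.95 and 1.57 CPM in DKO water, 1.48, 1.4 and 2.32 CPM in LAO1KO water and 1.11, 0.542 and 0.905 CPM in WT water. LAO1KO water lay above WT water without overlap for Ptprcap. It encodes a protein that binds CD45, and 829 of its 927 exon bases lie opposite exons of Rps6kb2. Since the sources used here do not say whether strand was used in counting, its reads cannot be told apart from those of Rps6kb2. Smaller exon overlaps of this kind were found for Cd22 with Gm29439 (264 bases), Cd3e with Gm48719 (135), Cxcr5 with Bcl9l (110) and Cd37 with Tead2 (13). On the same strand, Mzb1 overlaps the model SPATA24 by 459 bases and Lck overlaps Mir8119 by 25.

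The genes linked to plasma cells split. Pou2af1 was at 0.494, 1.66 and 0.621 CPM in DKO DSS, 0.643, 2.17 and 0.204 CPM in LAO1KO DSS and 2.23, 1.36 and 1.47 CPM in WT DSS. Under water it had 0.206, 0.113 and 1.97 CPM in DKO water, 0.227, 0.37 and 2.6 CPM in LAO1KO water and 0.891, 0.255 and 0.373 CPM in WT water. Pou2af1, the coactivator of octamer-binding factors, is also made by B cells, and its highest library in each group was that of Cd79a. Mzb1 was at 0.0872, 0.423 and 0.237 CPM in DKO DSS, 0.616, 0.808 and 0.0818 CPM in LAO1KO DSS and 0.691, 0.221 and 0.47 CPM in WT DSS. It was at 0.0685, 0.113 and 0.328 CPM in DKO water, 0.255, 0.29 and 0.856 CPM in LAO1KO water and 0.306, 0.0956 and 0.479 CPM in WT water. Mzb1 had 2 to 27 counts per library and followed Cd79a more loosely. Tnfrsf17 was at 0.0872, 0.121 and 0 CPM in DKO DSS, 0.0839, 0.0734 and 0 CPM in LAO1KO DSS and 0.115, 0.148 and 0.118 CPM in WT DSS. On water the values were 0, 0 and 0 CPM in DKO water, 0.0568, 0.0528 and 0 CPM in LAO1KO water and 0, 0 and 0 CPM in WT water. Tnfrsf17, the plasma cell survival receptor BCMA, had 0 to 4 counts and was at 0 in 9 libraries. Igha and Jchain, products of gut plasma cells, rested on more reads: the summed level of Igha and Jchain (the chain that joins IgA units) was 17, 6.26 and 17.4 CPM in DKO DSS, against 30.5, 11.8 and 33.4 CPM in DKO water. It was 6.74, 3.63 and 4.09 CPM in LAO1KO DSS, against 18.4, 41.1 and 42.1 CPM in LAO1KO water. It was 45.9, 48.2 and 9.76 CPM in WT DSS, against 30.9, 1.12 and 50.5 CPM in WT water. LAO1KO DSS lay below LAO1KO water without overlap, and WT spanned nearly the whole range.

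**Figure D4:**
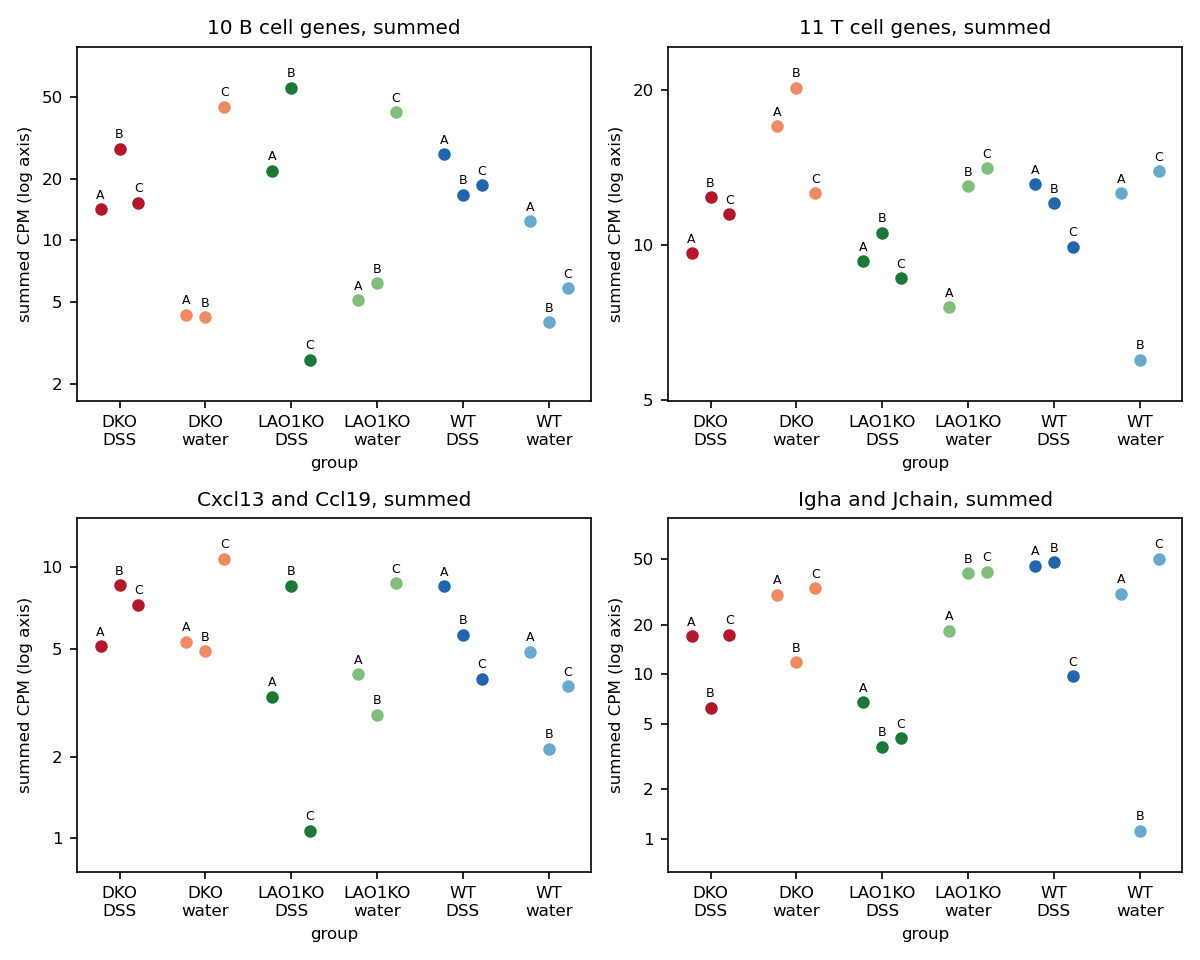
Summed CPM (log axis) of the 10 B cell genes, the 11 T cell genes, Cxcl13 with Ccl19, and Igha with Jchain, with 1 point per library (letter = replicate) and the groups along x. B cell sums span 2.62 to 55.4 CPM and reach above 40 CPM in replicate C of DKO water and LAO1KO water and in replicate B of LAO1KO DSS.

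What 24 hours of DSS did to these genes was tested with edgeR over all 18 libraries. Averaged over the 3 genotypes, 0 of the 28 genes were called at an adjusted p under 0.05, against 15.9% of all tested genes. In edgeR 0 had an unadjusted p under 0.05, and DESeq2 and limma voom also called 0, with no adjusted p from DESeq2 for 2 genes. All 10 B cell genes had a value above 0, with a median log2 fold change of 0.77, and 8 of 9 T cell genes had a value below 0, with a median of -0.23. The median over all tested genes was 0.03. Without single libraries the B cell median was between 0.38 and 1.44. Cd79a had a log2 fold change of 0.95 ± 0.79 (SE; 95% interval -0.77 to 2.66, adjusted p = 0.44), so that a level up to 6.31-fold higher remained within its interval. Coro1a had the smallest adjusted p, 0.179, at 0.43 ± 0.22 (interval -0.03 to 0.88), followed by Rac2 at 0.35 ± 0.19 (adjusted p = 0.21) and Lck at -0.23 ± 0.15 (0.295).

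In DKO mice, edgeR called 0 of the 28 genes, against 0.0159% of all tested genes, with 0 at an unadjusted p under 0.05. Limma voom called 0, and DESeq2 called 0 but gave an adjusted p for only 1 of the 28. All 9 T cell genes had a value below 0, with a median of -0.63 (-0.81 to -0.35 without single libraries). Lck had -0.50 ± 0.26 (SE; interval -1.05 to 0.04, adjusted p = 0.556) and Cd8a -1.0 ± 0.71 (-2.49 to 0.50, 0.689). Cd8a and Lat were lower in DKO DSS than in DKO water without overlap, 2 of 28 genes, against 10.4% of all tested genes, and 0 were higher, against 8.39%. The B cell median was 0.12, and 2.34 without DKO water replicate C. In that fit Cd79a had 3.72 in place of 0.33 ± 1.35 (adjusted p = 0.966), and leaving out replicate A or B of DKO water or replicate B of DKO DSS gave -0.20, -0.23 and -0.02.

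In LAO1KO mice, edgeR called 0 of the 28 genes, against 0.196% of all tested genes, with 0 at an unadjusted p under 0.05 and 0 called by DESeq2, which gave no adjusted p for 18 of them. Limma voom with library weights called 4, all lower under DSS: Lat (-1.12, adjusted p = 0.00414), Ptprcap (-1.2, 0.011), Cxcr5 (-1.27, 0.0314) and Cd3e (-1.04, 0.0336). In edgeR these had -0.79 ± 0.38 (SE; adjusted p = 0.329), -0.76 ± 0.47 (0.441), -0.56 ± 0.57 (0.663) and -0.49 ± 0.59 (0.712), and Cxcr5 was 0.26 without LAO1KO water replicate C. The share of all tested genes that limma voom called is not reported here. Its 4 calls therefore cannot be set against the 0.196% of edgeR. Values of the 28 genes overlapped between LAO1KO DSS and LAO1KO water in every case, against 9.3% of all tested genes higher and 10.1% lower without overlap. The B cell median was 0.50, from -0.43 without LAO1KO DSS replicate B to 2.0 without LAO1KO water replicate C. Cd79a had 0.90 ± 1.35 (adjusted p = 0.778), and -0.33 and 3.26 in those fits. Summed over 6 adipocyte genes, the level was 1085, 68.6 and 1006 CPM in LAO1KO DSS. In LAO1KO water it was 338 and 521 CPM in replicates A and B, and lower in replicate C. In each group except DKO water, the library with the highest B cell sum had the lowest adipocyte sum. Summed over 5 red cell genes, the level was 428, 106 and 591 CPM in LAO1KO DSS and 191, 237 and 138 CPM in LAO1KO water. Their part in these results was not tested. Jchain had -2.92 ± 0.94 (SE; adjusted p = 0.177) and Igha -2.76 ± 0.98 (0.208) in edgeR. Both passed in DESeq2 (0.032 and 0.0483) and in limma voom (0.00312 and 0.00717).

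In WT mice, edgeR called 0 of the 28 genes, against 12.9% of all tested genes, with 0 at an unadjusted p under 0.05 and 0 called by DESeq2 and by limma voom. Of the 28 genes 26 had a value above 0, with a median of 0.77, and 0.45 without WT water replicate B, against 0.02 for all tested genes. In 13 genes WT DSS lay above WT water without overlap, and in 0 it lay below, against 18% of all tested genes higher and 15.8% lower. The 13 were 8 B cell genes (Cd79a, Cd79b, Ms4a1, Cd22, Cr2, Fcer2a, Pax5 and Blk) with Cxcr5, Ltb, Coro1a, Rac2 and Pou2af1. Apart from Cd79a itself, these had r of 0.62 to 0.97 with Cd79a over the 18 libraries, so the 13 are not separate observations. The B cell median was 1.56, and 1.26 to 2.22 without single libraries. Cd79a had 1.60 ± 1.43 (SE; interval -1.48 to 4.69, adjusted p = 0.489), Ms4a1 1.5 ± 1.07 (0.371), Cr2 1.56 ± 1.41 (0.494) and Pou2af1 1.72 ± 1.06 (0.295). Coro1a (0.70 ± 0.38, 0.227), Ltb (0.84 ± 0.48, 0.253), Rac2 (0.56 ± 0.33, 0.271) and Cxcl13 (0.75 ± 0.59, 0.428) had smaller values with smaller errors. Without WT water replicate B, Coro1a was at 0.41, Ltb at 0.45 and Rac2 at 0.28.

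The T cell median in WT was 0.42, and -0.15 without WT water replicate B, so the direction of that list rested on 1 library. The mitochondrial share of counts was 26.1 to 44.9% in WT DSS, against 6.89 to 9.08% in WT water. With mitochondrial mRNAs left out of the counts, the B cell median was 1.55 and the T cell median 0.41. Summed smooth muscle genes (5 of 5 tested) were at 2467 to 5127 CPM in WT DSS, against 4185 to 6768 CPM in WT water, with all 5 log2 fold changes below 0. Summed epithelial genes (9 of 9) were at 22654 to 25507 CPM in WT DSS, against 21077 to 27207 CPM in WT water. Summed red cell genes (5 of 5) were at 102.8 to 410.0 CPM in WT DSS, against 41.4 to 110.1 CPM in WT water, with all 5 values above 0 and a median of 1.52. Summed adipocyte genes (6 of 6) were at 29.7 to 250.03 CPM in WT DSS, against 37.7 to 377.4 CPM in WT water, with all 6 values below 0 and a median of -0.96. The part of these in the result was not tested.

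**Figure D5:**
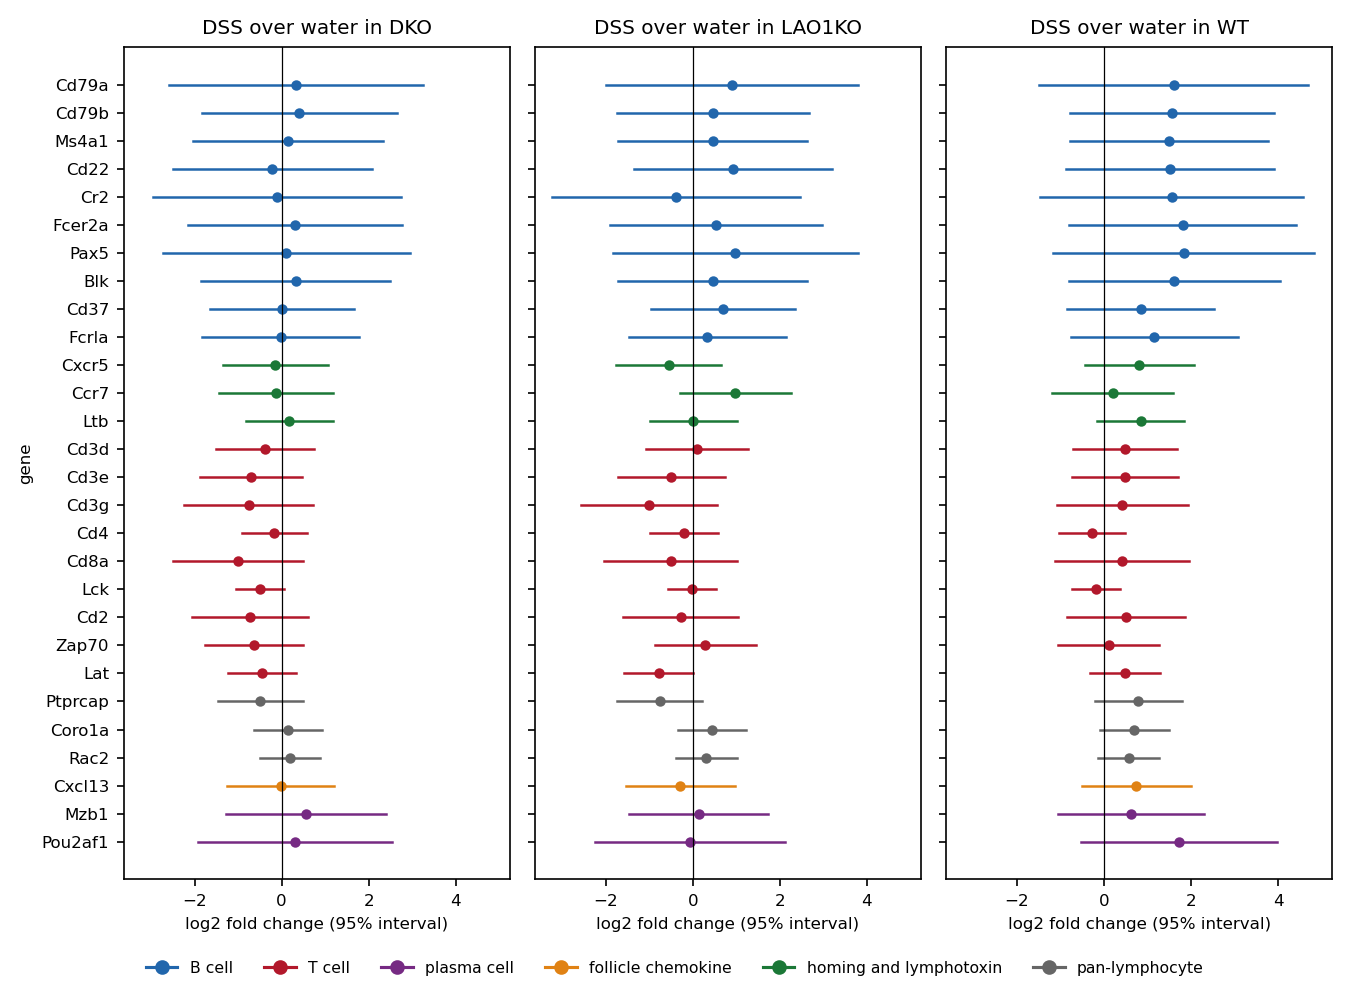
Log2 fold changes of the 28 tested genes for DSS over water in DKO, LAO1KO and WT mice (points, edgeR; lines, 95% intervals; colour by role), on 1 shared x axis. Every interval includes 0, and B cell intervals span several log2 units in each genotype, while those of Lck, Coro1a and Rac2 are narrow.

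Other B cell, plasma cell and follicle genes from lists chosen alongside were tested for DSS averaged over genotypes, in which 15.9% of all tested genes were called. Of 15 other B cell genes 1 rose and 1 fell, with a median of 0.53. The B cell factor Ebf1, which stromal cells and adipocytes also express, rose by 0.71 ± 0.23 (SE; edgeR adjusted p = 0.0419) and lost its call in 13 of 18 fits without 1 library. Ralgps2, a guanine nucleotide exchange factor that many cells express, fell by 0.37 ± 0.09 (0.011). Of 13 other plasma cell genes 1 fell: Sdc1, a plasma cell marker that colonic epithelium also makes, fell by 0.48 ± 0.09 (0.00197). Jchain had -1.5 ± 0.51 (0.0598) in edgeR. It passed in DESeq2 (-1.52, adjusted p = 0.0211), in limma voom (-1.37, 0.0165) and in edgeR without WT water replicate B (-1.69, 0.00627).

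Of 14 tested lymphoid stroma and lymphotoxin pathway genes 1 rose, the adhesion molecule Icam1, by 0.55 ± 0.15 (SE; edgeR adjusted p = 0.0186). Icam1 was at 4.88, 5.62 and 4.88 CPM in DKO DSS, 5.4, 4.77 and 3.8 CPM in LAO1KO DSS and 4.8, 5.38 and 3.41 CPM in WT DSS. Without DSS it had 2.95, 3.14 and 4.08 CPM in DKO water, 3.15, 2.35 and 3.9 CPM in LAO1KO water and 4.26, 2.96 and 2.55 CPM in WT water. Of 6 genes of the epithelium that covers follicles 1 rose, Marcksl1, by 0.40 ± 0.12 (0.0279), and it lost its call in 9 of 18 fits without 1 library. Calls were 0 among 6 tested germinal centre genes, 13 other T cell genes, 10 intraepithelial and cytotoxic lymphocyte genes, 4 regulatory T cell genes, 5 innate lymphoid genes and 10 macrophage and dendritic cell genes. In WT alone, where 12.9% of all tested genes were called, Trbc2, a T cell receptor beta constant region, rose by 1.23 ± 0.39 (0.0474), a call lost in 5 of 6 fits without 1 library. Trbc2 was at 1.31, 1.48 and 1.95 CPM in DKO DSS, 1.23, 1.32 and 1.39 CPM in LAO1KO DSS and 2.69, 2.1 and 2.7 CPM in WT DSS. The water libraries had 2.02, 2.6 and 1.6 CPM in DKO water, 0.681, 2.56 and 1.84 CPM in LAO1KO water and 1.2, 0.606 and 1.36 CPM in WT water. WT DSS lay above WT water without overlap, while DKO DSS and DKO water overlapped, as did LAO1KO DSS and LAO1KO water. In WT Sdc1 fell by 0.61 (0.0152) and Txndc5, an endoplasmic reticulum chaperone of secretory cells, fell by 0.54 (0.049). Without 1 library these calls were lost in 2 of 6 fits for Sdc1 (without WT water replicate B or WT DSS replicate C) and in 5 of 6 fits for Txndc5, which also lost its call with no low-count filter. Of 9 epithelial genes Krt20 and Cdh1 fell by 0.80 and 0.30 over the genotypes (0.0212 and 0.0404), and the goblet cell mucin Muc2 fell by 0.90 in WT (0.0197).

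Whether genotype changed these genes was tested in each drinking condition and over both. With DKO over WT averaged over treatments edgeR called 0 of the 28 genes, against 0.562% of all tested genes, with 0 at an unadjusted p under 0.05. With LAO1KO over WT it called 0, against 0.133%, with 1 gene at an unadjusted p under 0.05, and with DKO over LAO1KO 0, against 0.239%, with 2. DESeq2 and limma voom called 0 in all 3. Cd4 had -0.61 ± 0.26 for LAO1KO over WT (SE; interval -1.15 to -0.07, adjusted p = 0.996) and 0.79 ± 0.25 for DKO over LAO1KO (0.25 to 1.33, 0.521). Mzb1 had -1.24 ± 0.58 for DKO over LAO1KO (interval -2.45 to -0.02, adjusted p = 0.687). For Cd79a the value was 0.84 ± 0.98 for DKO over WT (adjusted p = 0.734), -0.86 without DKO water replicate C, and -0.30 in limma voom. For LAO1KO over WT it was 1.2 ± 0.98 (0.996), and 0.02 without LAO1KO water replicate C.

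Under water, DKO over WT gave 0 calls in edgeR, against 0.621% of all tested genes, with 1 gene at an unadjusted p under 0.05 and 0 called by DESeq2 (no adjusted p for 5) and limma voom. Of the 28 genes 27 had a value above 0, with a median of 0.95, against 0.01 for all tested genes. Without DKO water replicate C the median of the 28 was 0.12. All 9 T cell genes had a value above 0, with a median of 0.94, and 0.35 without WT water replicate B. Lat had 0.94 ± 0.38 (SE; interval 0.15 to 1.74, adjusted p = 0.214), Cd3d 1.14 ± 0.55 (0.294), Cd3e 1.15 ± 0.56 (0.305), Cd8a 1.26 ± 0.71 (0.372) and Cxcl13 0.98 ± 0.59 (0.406). Without WT water replicate B, Cd8a was at 0.67 and Lat at 0.64. Lat and Cxcl13 did not overlap between the groups, 2 of 28 genes, against 11.6% of all tested genes, and 0 lay below WT, against 9.86%. The B cell median was 1.28, and -1.02 without DKO water replicate C, so its sign rested on that library. Cd79a had 1.47 ± 1.43 (adjusted p = 0.623), -1.92 without DKO water replicate C, and -0.57 in limma voom. Summed smooth muscle genes were at 1663 to 4165 CPM in DKO water, against 4185 to 6768 CPM in WT water, without overlap, and all 5 log2 fold changes were below 0 with a median of -0.66. Summed adipocyte genes were at 33.5 to 82.4 CPM in DKO water, against 37.7 to 377.4 CPM in WT water, with all 6 values below 0 and a median of -2.73. Their part in the result was not tested.

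LAO1KO over WT under water gave 0 calls in edgeR, against 0.0531% of all tested genes, with 2 genes at an unadjusted p under 0.05 and 0 called by DESeq2 (no adjusted p for 8) and limma voom. These were Lat at 0.94 ± 0.38 (SE; interval 0.15 to 1.73, adjusted p = 0.277) and Ptprcap at 1.01 ± 0.47 (0.03 to 1.99, 0.338). Cxcr5 and Ptprcap lay above WT without overlap, 2 of 28 genes, against 8.4% of all tested genes. Cd4 lay below WT, 1 of 28, against 8.22%. The B cell median was 1.27, and -0.39 without LAO1KO water replicate C.

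Under DSS, DKO over WT gave 0 calls in edgeR, against 0.255% of all tested genes, and LAO1KO over WT gave 0, against 0.0849%. In both, 0 genes had an unadjusted p under 0.05, and DESeq2 and limma voom called 0. Ltb lay below WT without overlap in DKO (-0.41 ± 0.47, SE; adjusted p = 0.785), 1 of 28 genes, against 11.6% of all tested genes, and 0 lay above, against 9.83%. Cd3g lay below WT in LAO1KO (-1.23 ± 0.75; 0.828), 1 of 28, against 6.44%, and 0 lay above, against 5.33%. Cd79a had 0.20 ± 1.36 in DKO over WT (interval -2.72 to 3.13, adjusted p = 0.969) and 0.85 ± 1.36 in LAO1KO over WT (-2.08 to 3.77, 0.939). These widths leave room for changes of several fold in either direction. Igha had -2.94 ± 0.98 for LAO1KO over WT (adjusted p = 0.718 in edgeR, 0.181 in DESeq2, 0.0458 in limma voom).

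The difference of the DSS responses of 2 genotypes was tested in the same fit. For DKO set against WT, edgeR called 0 of the 28 genes, against 0.0584% of all tested genes, with 0 at an unadjusted p under 0.05 and 0 called by DESeq2 (no adjusted p for 11) and limma voom. For LAO1KO against WT it called 0, against 0% of all tested genes, with 2 genes at an unadjusted p under 0.05 and 0 called by DESeq2 (no adjusted p for 8). Of the 28 genes 27 had a value below 0 for DKO and 24 for LAO1KO, with medians of -1.17 and -0.84. These comparisons share the WT libraries. Without DKO water replicate C the median for DKO was -0.24, and without LAO1KO water replicate C that for LAO1KO was 0.13. Without WT water replicate B they were -0.75 and -0.45. Ptprcap had -1.55 ± 0.66 (SE; interval -2.95 to -0.16, adjusted p = 0.267) and Lat -1.27 ± 0.54 (-2.41 to -0.13, 0.267) for LAO1KO. Limma voom called both, at -1.91 (adjusted p = 0.0369) and -1.67 (0.0251), and its share of all tested genes is not reported here. For DKO, Ptprcap and Lat had -1.28 ± 0.66 (edgeR adjusted p = 0.365) and -0.93 ± 0.54 (0.424). Cd79a had -1.27 ± 1.96 for DKO (interval -5.49 to 2.95, adjusted p = 0.796) and -0.70 ± 1.94 for LAO1KO (-4.89 to 3.49, 0.895).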

How the data were processed

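Strand-specific libraries were made with the TruSeq Stranded mRNA kit from colon tissue and sequenced as paired reads of 150 bases, per the labels' protocols. The deposited table holds the authors' raw counts per gene, whole numbers for each of the 18 libraries. Per the submitters' processing notes, R 4.3.2 with DESeq2 1.42.1, StringTie 2.1.3b, HISAT2 2.1.0, FastQC 0.11.7 and Trimmomatic 0.38 were used with mouse build GRCm38, and the role of each is not stated. Whether strand was used in counting is not given in the sources used here. Collection dates and batches are not given either, so no batch could be examined.

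Counts were scaled with TMM, filtered with filterByExpr and fitted with edgeR 4.0.16 (R 4.3.3) by robust quasi-likelihood, with 1 mean per group over all 18 libraries. A gene was called at a Benjamini-Hochberg adjusted p under 0.05 over the 18848 tested genes. With 3 libraries a group, 13 comparisons were made, and their p-values set group differences against the spread between these mice. CPM values use the TMM-scaled totals. DESeq2 1.42.0, limma 3.58.1 (voom with library weights), RLE scaling, no filter, a replicate block, mitochondrial mRNAs left out and each library left out in turn were the alternatives. On simulated counts for DSS averaged over genotypes (18634 genes), edgeR recovered 90% of genes changed 2-fold and 58% of those changed 1.5-fold. The changed genes were drawn from those with a mean above 1 CPM and were changed in all 3 DSS groups. The B cell genes had a biological coefficient of variation of 0.64 to 1.18, against a median of 0.20 for all tested genes. These shares therefore do not carry over to the B cell genes, to genes of lower level or to comparisons of 3 against 3 libraries. Permutation tests and figures used Python 3.11.15, numpy 2.4.6, scipy 1.17.1 and matplotlib 3.10.9.

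The genes and lists were chosen with earlier results of these data known. Values in every library were given for 12 set genes, and for the 5 genes of the set with the smallest p where a comparison had no call. Of other lists, called genes were named, up to 4 a list. Of the 10 genes most like Cd79a over the 18 libraries, some are not reported here. Gene positions and exon lengths are from GENCODE's GRCm38 annotation and promoters from RefSeq's GRCm38.p6.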

Additional observations from a re-analysis of the deposited data

How the results depend on the processing

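The count of called genes of the set was 0 in the 13 comparisons under RLE scaling, no filter, the replicate block, mitochondrial mRNAs left out, DESeq2 and each library left out. Limma voom called 4 for DSS in LAO1KO and 2 for the LAO1KO interaction, and its shares over all tested genes are not reported here. The cause was not tested.

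Without 1 library Cd79a kept its direction for DSS averaged over genotypes (0.52 to 2.07), DSS in WT (1.25 to 2.34) and LAO1KO over WT averaged over treatments (0.019 to 1.56), and not in the other 10 comparisons. Its log2 fold change ran from -0.23 to 3.72 for DSS in DKO, -0.33 to 3.26 for DSS in LAO1KO, -0.86 to 1.19 for DKO over WT and -2.06 to 0.82 for DKO over LAO1KO averaged over treatments. It ran from -1.92 to 2.20 for DKO over WT and -0.81 to 2.29 for LAO1KO over WT under water, and from -0.14 to 0.53 and -0.36 to 1.44 for the same under DSS. In the interactions it ran from -2.02 to 2.12 for DKO and -1.90 to 1.66 for LAO1KO. Limma voom gave -0.30, -0.57 and -0.037 for DKO over WT averaged, under water and under DSS, and 0.53 for the DKO interaction. Cxcr5 for DSS in LAO1KO ran from -1.30 to 0.26.

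Without the 2 farthest libraries r was 0.53 for Cd79a with Ccr7, 0.0064 with Cd3e, 0.040 with Cd8a and -0.071 with Igha, and 0.42 for Cd3e with Zap70. Without 1 library r ran from 0.49 to 0.71 for Cd79a with Ccr7, -0.42 to 0.016 with Cd8a and -0.054 to 0.29 with Igha, and from -0.023 to 0.35 for Cd3e with Cd4.

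With the replicate block Cd79a was 0.0715 in the LAO1KO interaction. Same-letter libraries correlated at -0.36 to 0.39 in their deviations from group means, with a median of 0.035. Different-letter libraries correlated at -0.36 to 0.46, with a median of -0.033. Of the 18 libraries 10 correlated best with their own letter. These values do not settle whether a letter stands for anything shared. The letters were not taken as pairs because the labels give no pairing. Ccl19, Cd5, Cd8b1 and Tnfrsf17 did not pass the filter on low counts and were not tested.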
